A study of Mus musculus with 21 samples.

Results

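The cells described here were the Hhip and smooth muscle cells of the mouse lung, taken from unchallenged lungs and from the microenvironment of melanoma metastases in the lung (lung metastasis TME). They were selected on their transcripts. A cell was a member when it held at least 1 unique molecular identifier (UMI, 1 counted RNA molecule) of at least 3 of the 6 genes Hhip, Mustn1, Enpp2, Myh11, Actg2 and Tagln, with Hhip or Myh11 among them. It also had to hold fewer than 2 of the pericyte genes Rgs5, Higd1b and Cox4i2, and no UMI of Ptprc, Pecam1 or Epcam, which mark blood, endothelial and epithelial cells. By this rule 53 of 45034 cells were members, 26 of 37386 from unchallenged lung and 27 of 7648 from lung metastasis TME. The whole deposited table held 110283 barcodes.

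Hhip encodes a membrane protein that binds hedgehog ligands and so dampens hedgehog signalling. In the lung, the hedgehog ligand Shh is made by epithelium and is received by the mesenchyme beneath it, where Hhip is a target gene of the same pathway. Myh11, the myosin heavy chain of smooth muscle, drives contraction in the muscle wrapped around airways and vessels, together with Actg2, a smooth muscle actin. Tagln (transgelin) binds actin there, and Mustn1 is a small protein of muscle and skeletal tissue. Enpp2 is autotaxin, the secreted enzyme that makes lysophosphatidic acid. In GRCm38, Hhip lies at chr8:79965851-80058006 (minus strand), Myh11 at chr16:14194535-14291372 (minus), Enpp2 at chr15:54838901-54952892 (minus), Mustn1 at chr14:30879200-30881610 (plus), Actg2 at chr6:83512905-83536265 (minus) and Tagln at chr9:45929619-45936058 (minus).

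All mice were mT/mG reporter mice without Cre, so that host cells carried membrane tdTomato and the grafted melanoma did not. In the metastasis group, young adult mice of both sexes received fragments of MT-ret melanoma under the skin, the primary tumor was resected, and lung metastases were found by magnetic resonance imaging. Unchallenged lungs came from mT/mG mice that received no tumor. The study states that its metastasis samples also held a little adjacent tissue free of tumor, and so explains their cells among its alveolar and peribronchial fibroblasts. Which metastasis members came from such tissue is not known. A difference between the tissues here is thus not one between tumor stroma and lung alone. Sorted living tdTomato+ cells, or tdTomato+ CD45- cells, were profiled by 10x 3′ single-cell RNA sequencing, and no source used here says which gate a library had. The labels number the samples of each group as replicates, and the library names give each of them a mouse number. P-values measure the spread between these few libraries.

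Of 8 libraries used, with 2750267 to 53506609 UMIs each, 6 held members. Unchallenged lung replicates 4, 5 and 6 had 10, 10 and 6 members, and lung metastasis TME replicates 4, 5 and 6 had 4, 17 and 6. Unchallenged lung replicate 1 and the pooled lung metastasis TME replicates 1 to 3 had 0 members among 5 and 3 mesenchymal cells (defined below), which allows shares of up to 52.2 and 70.8% (exact binomial 95% interval). The library taken as unchallenged lung replicate 1 carries another replicate number in its name and was matched as the one left over. Replicates 7 and 8 of the lung metastasis TME were identical in every count to replicates 5 and 6 and were counted once. All 1036 barcodes of lung metastasis TME replicate 6 were also the barcodes of a library named for cancer cells of a lung metastasis, which is at odds with its label as microenvironment. The share and the counts of called genes between tissues are therefore also given without that replicate. Between the other distinct libraries of the 2 tissues, at most 48 barcodes were shared.

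The members were shallow single cells. Those of unchallenged lung held 980 to 11092 UMIs with a median of 4231, and those of lung metastasis TME held 1023 to 12165 with a median of 2322. No doublet caller was run, and 9 members held more than 8000 UMIs, of which 6 carried little Hhip or Myh11 (below). Cells on either side of the threshold are described by Hhip, a gene of the rule itself, which cannot test the cut. The 27 members with exactly 3 of the 6 genes held Hhip at 1743 counts per 1000000 UMIs (CPM), in 14 cells. The 39 cells that missed the rule with exactly 2 held it at 288 CPM, in 23 cells.

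Hhip and Myh11 were high in separate cells. Hhip was found in 21 of 26 members of unchallenged lung and 12 of 27 of lung metastasis TME, and Myh11 in 11 and 19, with a UMI of both in 6 and 4. With a limit of 5 UMIs, chosen after the values were seen, 24 members were high in Hhip, 8 were high in Myh11 and 0 were high in both. The remaining 21 members reached 5 UMIs of neither gene. All of this comes from genes the selection used or from the same cells, so the values that follow describe the cells and are not tested.

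**Figure D1:**
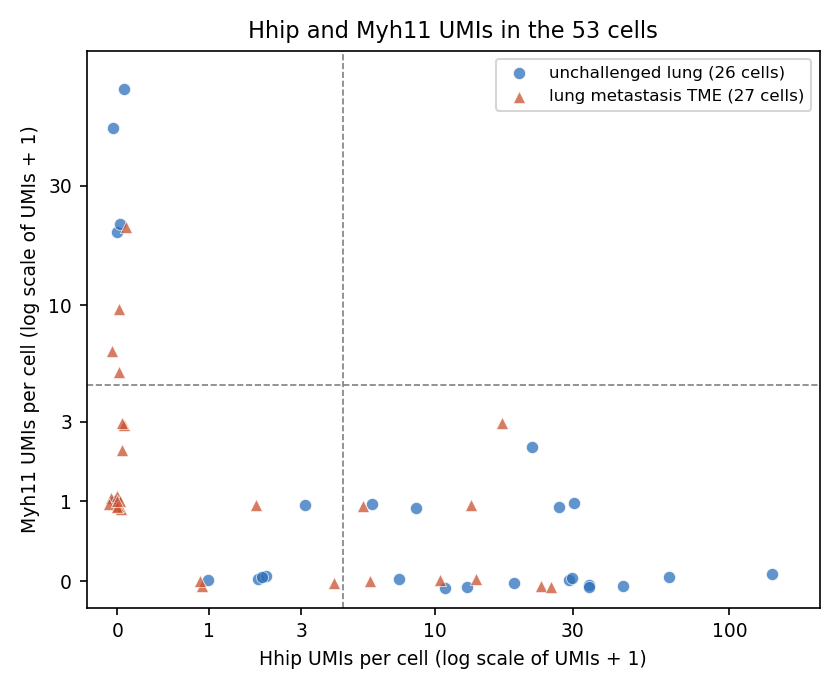
Myh11 UMIs (vertical axis) against Hhip UMIs (horizontal axis) in each of the 53 members, with 1 slightly shifted point per cell, both on a log scale of UMIs plus 1, with circles for unchallenged lung, triangles for lung metastasis TME and broken lines just under 5 UMIs. The 24 Hhip-high cells lie along the horizontal axis and the 8 Myh11-high cells along the vertical axis, with 0 cells at 5 or more UMIs of both.

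Each Hhip-high cell held 5 to 148 UMIs of Hhip with a median of 19.5. In these cells Enpp2 was found in 23 of 24 (213 UMIs) and Mustn1 in 21 of 24 (144 UMIs), while Myh11 was found in 8 of 24 at no more than 3 UMIs a cell. Each Myh11-high cell held 5 to 70 UMIs of Myh11 with a median of 19.5, and all 8 held 0 UMIs of Hhip, 8 to 102 of Tagln and 12 to 169 of Acta2, the smooth muscle actin that the rule did not use. Mustn1 was found in 5 of the 8 and Enpp2 in 1, so that Mustn1, unlike Enpp2, was common to both kinds.

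The contractile genes were highest in the cells with Myh11. Acta2 stood at 12035 CPM in the Myh11-high cells and 419 CPM in the Hhip-high cells, and 1 cell gave 20 of the latter's 40 Acta2 UMIs. Tpm2 and Tpm1, the tropomyosins that cover actin's myosin-binding sites, stood at 6225 against 241 CPM and 4417 against 314 CPM. Myl9, the regulatory light chain of smooth muscle myosin, was found in all 8 Myh11-high cells (116 UMIs) and as a single UMI in 10 of 24 Hhip-high cells.

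Of the genes more particular to differentiated smooth muscle, Cnn1 and Actc1 were at 0 in the Hhip-high cells. Ppp1r14a and Lmod1 were found in some of them. Cnn1, the actin-binding calponin, gave 32 UMIs in 6 of 8 Myh11-high cells and 0 UMIs in 24 Hhip-high cells, which is at least 30.2-fold higher against the level that 3 counts would give there. Actc1, an actin best known from the heart, gave 56 UMIs in 5 of 8 cells against 0, at least 52.8-fold higher, although 1 cell held 51.8% of those UMIs. Ppp1r14a, an inhibitor of myosin phosphatase, gave 56 UMIs in 8 of 8 against 3 UMIs in 3 of 24. Lmod1, a leiomodin that nucleates actin filaments, gave 51 UMIs in 8 of 8 against 15 UMIs in 7 of 24.

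Many contractile genes are driven by serum response factor, which binds a CArG box. This box was sought in 300 bases of promoter, from 250 before to 50 after the start, of 24 contractile genes. Of these, 20 had a RefSeq entry (GRCm38.p6), and 2 of the 20 held the box, against 1.63% of all 32851 entries (535). The 2 stretches are shown because Actc1 and Myl9 are among the genes that set the Myh11-high cells apart. Capitals mark the box, which reads as a CArG box on both strands. In Actc1 it lies 47 to 38 bases before the start (chr2:114052903-114052932, minus strand), and in Myl9 161 to 152 bases before (chr2:156775293-156775322, plus strand). A match describes these letters and not a bound site.
Actc1: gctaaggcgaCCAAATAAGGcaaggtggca
Myl9: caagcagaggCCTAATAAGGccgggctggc

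Matrix genes differed between the kinds in both directions. Mgp, a matrix protein that inhibits calcification and binds BMPs, was found in 24 of 24 with 1 to 381 UMIs a cell, at 15936 CPM against 2875 CPM in the Myh11-high cells. Gsn, the actin-severing gelsolin, stood at 5455 against 860 CPM, and Fmo2, a flavin monooxygenase abundant in lung, at 1749 against 741 CPM. Eln (elastin) went the other way, with 377 CPM in the Hhip-high and 1808 CPM in the Myh11-high cells. So did Postn (periostin), with 7 UMIs in 4 of 8 Myh11-high cells against 0 in the Hhip-high cells, at least 6.61-fold higher.

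Among secreted factors, Bmp5, a BMP ligand, gave 55 UMIs in 16 of 24 Hhip-high cells against 0 UMIs in the 8 Myh11-high cells, at least 6.48-fold higher. Wnt5a, a Wnt ligand of the non-canonical kind, was found in 18 of 24 against 1 of 8, and Igf1 in 14 of 24 against 0 of 8. The fibroblast proteoglycans Dcn and Lum gave 106 and 62 UMIs against 0 of each in the Myh11-high cells, at least 12.5-fold and 7.30-fold higher, with 39.6 and 24.2% of the UMIs in 1 cell. A pair of Hhip-high cells of unchallenged lung stood near the limit, with 6 and 7 UMIs of Hhip, and were also the only Hhip-high cells above 8000 UMIs. They held 40.6% of the UMIs of Dcn in these 24 cells, 61.8% of Gsn, 85.0% of Col1a2, a chain of type I collagen, and 11 of 12 UMIs of the fibroblast receptor Pdgfra, but 0 of Lum, 3.64% of Bmp5 and 2.03% of Hhip. Without them Dcn gave 63 UMIs in the other 22 cells, and Col1a2 was at 436 CPM there and at 504 CPM in the Myh11-high cells.

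Genes known from pericytes and other mural cells had no common pattern. Notch3, a receptor needed by vascular smooth muscle, gave 7 UMIs in 4 of 8 Myh11-high cells and 0 in the Hhip-high cells, and Aoc3, an amine oxidase of the vessel wall, gave 15 UMIs in 4 of 8 against 0. Kcnj8 and Abcc9, which together form an ATP-sensitive potassium channel, gave 34 and 27 UMIs, each in 12 of 24 Hhip-high cells, against 2 UMIs in 1 cell and 4 UMIs in 4 cells of the Myh11-high kind. Abcc9 was thus present in both kinds.

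Transcriptional regulators were sparse. Carmn, a long noncoding RNA that works with myocardin in smooth muscle, gave 37 UMIs in 6 of 8 Myh11-high cells and 8 UMIs in 6 of 24 Hhip-high cells. Tbx4, a T-box factor of lung mesenchyme, gave 24 UMIs in 12 of 24 Hhip-high cells and 1 UMI in the Myh11-high cells. Pcsk5, a proprotein convertase that trims secreted factors, was in 15 of 24 Hhip-high cells (31 UMIs) and 0 of 8 Myh11-high cells.

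**Figure D2:**
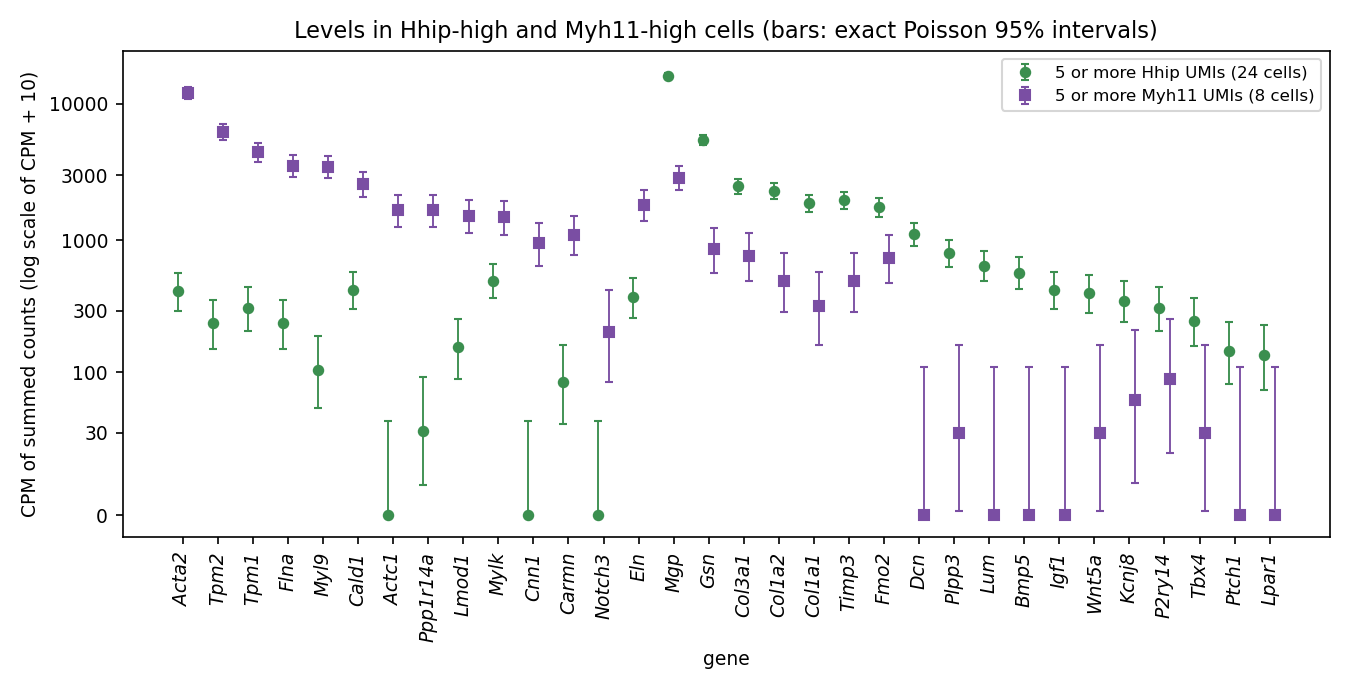
Level in CPM (log scale of CPM plus 10) of contractile, mural, matrix and secreted genes, summed over the 24 Hhip-high cells and over the 8 Myh11-high cells, with bars for the exact Poisson 95% interval, which covers counting error only. Acta2, Tpm2 and Cnn1 are higher in the Myh11-high cells, and Mgp, Bmp5 and Dcn in the Hhip-high cells.

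Parts of the hedgehog and lysophosphatidic acid pathways were seen in the same cells. Ptch1, the hedgehog receptor and a target of the pathway, gave 14 UMIs in 8 of 24 Hhip-high cells and 0 in the Myh11-high cells. Gas1, a hedgehog co-receptor, gave 19 UMIs in 12 of 24 and 1 UMI in the other 8. Over all members the ligands Shh and Ihh had 0 UMIs, Dhh had 1, and the transcription factor Gli1, a further target, had 1. Lpar1, a receptor of lysophosphatidic acid, was found in 8 of 24 Hhip-high and 0 of 8 Myh11-high cells, and Plpp3, a phosphatase that degrades lysophosphatidic acid outside the cell, in 18 of 24 and 1 of 8. At these depths, a gene at a few UMIs cannot be called absent from the cells without one.

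The label joins cells that fall into 2 kinds by the limit of 5 UMIs, with 21 members in neither. That limit was set on genes of the rule after their values were seen. The smooth muscle name fits the 8 Myh11-high cells, which hold the contractile genes. It fits the 24 Hhip-high cells less well, where Acta2 was far lower and 0 UMIs of Cnn1 and Actc1 were counted. Where the cells lay was not measured, so that "peribronchial" could not be checked. The kinds were also unevenly spread over the libraries. The Hhip-high cells numbered 6, 6 and 4 in unchallenged lung replicates 4, 5 and 6 and 3, 5 and 0 in lung metastasis TME replicates 4, 5 and 6. The Myh11-high cells numbered 1, 3 and 0 and then 0, 4 and 0. All 6 members of lung metastasis TME replicate 6 belonged to the 21 cells that reached 5 UMIs of neither gene.

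Some members carried genes typical of other cells, most of them among those 21. The 4 members of unchallenged lung with at least 3 of 5 alveolar fibroblast genes, 1 of them Hhip-high with 6 UMIs, held all 336 UMIs of Inmt, an alveolar fibroblast methyltransferase, at 67, 41, 112 and 116 UMIs. A member of lung metastasis TME replicate 6 with 12165 UMIs held 110 UMIs of Saa3, an acute-phase protein, 90 of Cxcl13, a chemokine for B cells, 54 of Pdgfra and 1 of Myh11. Another of 11100 UMIs held 273 UMIs of Dct, a melanin-pathway enzyme of melanocytes, and 1 of Hhip. Whether such cells were doublets was not tested.

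Set beside other mesenchymal cells of the same libraries, the members differed from fibroblasts in genes the rule did not use. Both kinds of fibroblast had to hold fewer than 2 of the 6 marker genes of the rule. The contrast is thus not independent of the selection and only describes the cells. Acta2 ranged from 768 to 4599 CPM over the 5 libraries with at least 5 members, with a median of 1534. It was at 0 to 39.4 CPM in alveolar fibroblasts (4 libraries) and 11.8 to 28.1 CPM in adventitial fibroblasts (3 libraries), and at 6230 CPM in the pericytes of lung metastasis TME replicate 5, the one library with enough of them. Over all members of a library, Acta2 thus lay well above its level in fibroblasts and not above that in pericytes. Tpm2 was at 370 to 2119 CPM in members, a range that held the 1075 CPM of the pericytes. In the Myh11-high cells alone, pooled over libraries at the levels given above, both genes stood higher than in these pericytes. Cnn1 and Lmod1, with medians of 82.7 and 331 CPM in members, were at 7.85 and 86.3 CPM in pericytes.

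Of the genes of the Hhip-high cells, P2ry14, a receptor for UDP-sugars, had a median of 165 CPM in members against 0 CPM in alveolar fibroblasts, 3.91 CPM in adventitial fibroblasts and 23.5 CPM in pericytes. Mgp was abundant in all mesenchymal kinds, with medians of 10871 CPM in members, 10971 CPM in alveolar fibroblasts and 14737 CPM in adventitial fibroblasts, while endothelial cells, which should lack it or hold little, were at 28.8 to 752 CPM. The like background in endothelial cells was at most 2.16 CPM for Hhip. Outside the rule and the gene lists, the genes with the highest lowest ratio to all other mesenchymal cells over the 5 libraries were led by Ccdc3, a secreted protein (27.4 to 222 CPM in members), and Mrvi1, a target of nitric oxide and cGMP signalling in smooth muscle (27.4 to 68.9 CPM). Ntrk3, the receptor of neurotrophin 3, followed with 20.7 to 293 CPM. Ccdc3 gave 17 UMIs in 13 of 24 Hhip-high cells and 0 in the Myh11-high cells.

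The first comparison between tissues asked whether the members made up another share of the mesenchymal cells, which were defined as members or cells with at least 2 of 6 mesenchymal genes and none of the 3 excluded genes. The share was 18.5% in unchallenged lung replicate 4 (10 of 54 cells, exact binomial 95% interval 9.25 to 31.4%), 7.63% in replicate 5 (10 of 131, 3.72 to 13.6%) and 1.39% in replicate 6 (6 of 433, 0.51 to 2.99%). It was 1.41% in lung metastasis TME replicate 5 (17 of 1204, 0.825 to 2.25%) and 2.93% in replicate 6 (6 of 205, 1.08 to 6.26%). The 3 lungs spread over more than the difference between the tissues, and lung replicate 6 lay below both metastasis replicates.

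The mean share was 2.17% ± 1.07 (SD, n = 2) in lung metastasis TME and 9.18% ± 8.67 (SD, n = 3) in unchallenged lung, a difference of -7.01 percentage points. It did not exceed the spread between libraries (p = 0.6, two-sided exact permutation test, whose smallest possible p was 0.2 with 2 against 3 libraries). Without lung metastasis TME replicate 6 the difference was -7.77 points, without unchallenged lung replicate 4 it was -2.34 and without unchallenged lung replicate 6 it was -10.9. Left out was lung metastasis TME replicate 4, with only 9 mesenchymal cells, of which 4 were members. Cells with melanoma RNA moved with this share. When mesenchymal cells with at least 2 melanoma genes were left out of the denominator, a choice made after seeing the data, the metastasis shares became 13.2 and 4.55% and the difference -0.318 points. When such cells were left out of members too, the metastasis shares were 2.61 and 1.56% and the difference -7.09 points. The CD45 gate of each library is not given, and its part in the shares was not tested.

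**Figure D3:**
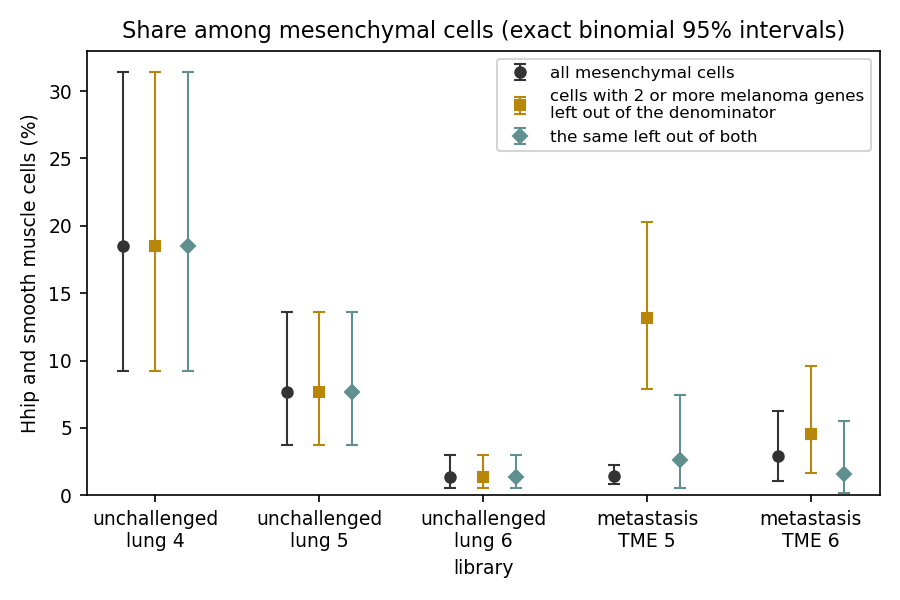
Members as a percentage of mesenchymal cells in each library with at least 20 such cells, with bars for the exact binomial 95% interval, over all such cells (circles), with cells of at least 2 melanoma genes left out of the denominator (squares) and out of both counts (diamonds). By the circles, the 3 unchallenged lungs lie between 1.39 and 18.5% and the 2 lung metastasis TME libraries at 1.41 and 2.93%, within the span of the lungs.

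The next comparison asked which genes differed between the tissues within the members. Counts were summed over the members of each library, and the libraries with at least 5 members (3 of unchallenged lung, 2 of lung metastasis TME) were compared with edgeR's quasi-likelihood test and Benjamini-Hochberg adjustment. The 12 genes of the rule were not tested. Of 759 genes tested, 22 (2.9%) were called at an adjusted p below 0.05, 16 higher (2.11%) and 6 lower (0.791%) in lung metastasis TME.

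Melanocyte genes were higher. Dct was at 0 CPM in the members of all 3 unchallenged lungs and at 4298 and 8062 CPM in lung metastasis TME replicates 5 and 6. It was at least 232-fold higher over the pooled members, of whose 505 UMIs 1 cell held 54.1%. Its fitted log2 fold change, which depends on the prior count, was 11.13 (edgeR adjusted p = 0.0015). Syt4, a synaptotagmin, was at 0 UMIs in 26 lung members and 50 UMIs in 11 of 27 metastasis members, at least 22.9-fold higher (edgeR adjusted p = 0.01). Gpnmb, a glycoprotein of melanosomes, was higher by 3.94 on the log2 scale (edgeR adjusted p = 0.0418). These were the 3 tested genes of the 9 on the melanoma list. The list held 3 UMIs in the lung members and 664 in the metastasis members. A gene of it could thus pass the filter on low counts only through the metastasis members, so that the direction of all 3 was set by the filter.

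Melanocyte RNA was also counted in the other cells of these libraries. A UMI of Dct, Pmel, Tyrp1 or Mlana was found in 26 of 27 metastasis members and 0 of 26 lung members, and each of the 17 members of lung metastasis TME replicate 5 held 5 to 23 UMIs of Dct. The 9 melanoma markers made up 0.142, 0.597 and 0.993% of the members' UMIs in lung metastasis TME replicates 4, 5 and 6, against 0 to 0.0037% in the lungs. In the endothelial cells of the same 3 libraries they made up 0.0513, 0.872 and 0.164%. Of the 16 genes higher in the members, 13 were also higher in endothelial cells without overlap of the libraries, as were 251 (33.1%) of all 759 genes tested. The part of melanoma RNA in the other calls was not tested.

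Of the 5 tested genes of the hypoxia and glycolysis list, 3 rose. Pkm, pyruvate kinase, was found in 9 of 26 lung members and 20 of 27 metastasis members (log2 fold change 3.22, edgeR adjusted p = 0.0128). Ldha, lactate dehydrogenase, and Tpi1, triosephosphate isomerase, were higher by 2.93 and 2.49 (edgeR adjusted p = 0.0252 and 0.0327). A single metastasis cell held 45.1% of the 91 metastasis UMIs of Pkm, and a single cell held 53.1% of the 64 of Ldha and 43.9% of the 57 of Tpi1. Pkm, Ldha and Tpi1 were also higher without overlap in the endothelial cells of the metastases, such as Pkm at 874 and 404 CPM against 115 to 145 CPM. For none of them was the tissue difference in the members called unlike that in endothelial cells. Aldoa and Gapdh, the other tested genes of the list, had edgeR adjusted p-values of 0.0856 and 0.104, and the median of the list was 2.49 against 0.08 over all genes tested. The list held 134 UMIs in the lung members and 499 in the metastasis members, so that the filter on low counts could favour genes higher in the metastases.

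Fn1, Trf and Cxcl13 were higher too. Fn1, the matrix protein fibronectin, was at 248, 310 and 259 CPM in the lungs and at 1942 and 3099 CPM in the metastases (log2 fold change 3.26 ± 0.60, SE, edgeR adjusted p = 0.0128). The groups did not overlap, and Fn1 was found in 7 of 26 lung and 14 of 27 metastasis members. Trf, the iron carrier transferrin, was at 293, 68.9 and 37 CPM against 1880 and 1673 CPM (3.70 ± 0.72, edgeR adjusted p = 0.0138), and 1 cell held 57.2% of its 152 metastasis UMIs. Cxcl13 was at 0 CPM in the 3 lungs and at 393 and 2468 CPM in the metastases, and its 109 UMIs came from 4 cells, 90 of them from 1. That cell, of replicate 6, also held 54 UMIs of Trf and 52 of Fn1. The top Trf cell, of replicate 5, held 87 of Trf, 17 of Cxcl13 and 25 of Fn1. Both cells held 1 UMI of Myh11 and 0 of Hhip.

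**Figure D4:**
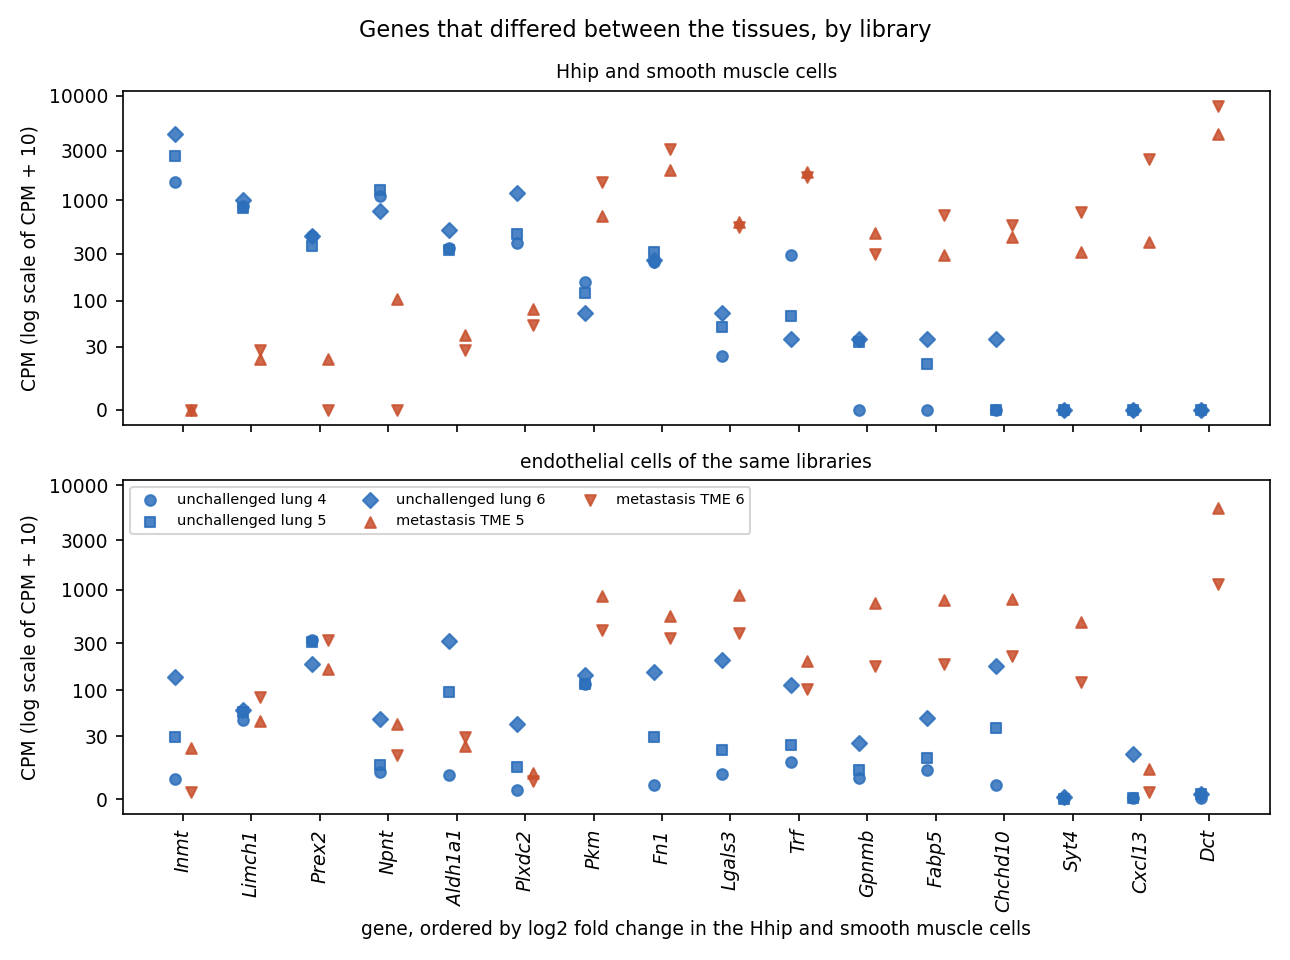
CPM of 16 called genes in the members of each library (upper panel) and in the endothelial cells of the same libraries (lower panel), on a log scale of CPM plus 10, with 1 symbol per library, blue for unchallenged lung and red for lung metastasis TME. Dct is at 0 in the 3 lungs in the members and at 4298 and 8062 in the 2 metastases, and is also higher in the endothelial cells of the metastases (6083 and 1121).

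Of the 6 lower genes, 3 were alveolar fibroblast genes. Inmt was at 1511, 2635 and 4289 CPM in the lungs and 0 in both metastases, at least 81.3-fold lower, with an edgeR adjusted p of 0.00469. Limch1, an activator of non-muscle myosin, was at 880, 844 and 998 CPM against 20.7 and 27.4 CPM (-5.06 ± 0.75, edgeR adjusted p = 0.00469). Npnt, the matrix protein nephronectin, was at 1105, 1257 and 776 CPM against 103 and 0 CPM (-4.15 ± 0.85, edgeR adjusted p = 0.0183). Of the 13 genes on the alveolar fibroblast list, 6 were tested and these 3 were called, with all 6 at an unadjusted p under 0.05 and a median of -4.61. The list held 1127 UMIs in the lung members and 145 in the metastasis members. The filter on low counts thus favoured genes higher in the lungs, and the count and the median are no separate support.

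The other lower genes were Prex2, a guanine nucleotide exchange factor for Rac (-4.83 ± 0.90), Aldh1a1, a retinaldehyde dehydrogenase (-3.33 ± 0.75), and Plxdc2, a plexin-domain membrane protein (-3.14 ± 0.73), with edgeR adjusted p-values of 0.0128, 0.0327 and 0.0408. Each unchallenged lung held at least 1 of the 4 cells with alveolar fibroblast genes, and the top 4 cells for each of the 6 lower genes held 75 to 100% of its lung UMIs. Without those 4 cells, an alternative added after seeing the data, the 6 lower genes did not pass the filter on low counts and were not tested. Of the 584 genes that were, 9 were called higher, all 9 among the 22. When cells with at least 2 of the 6 rule genes were taken, 22 genes were called again, 15 of them among the first 22. The 6 lower genes and Fn1 were then not called, with log2 fold changes of -2.70 for Inmt, -1.56 for Limch1, -1.35 for Npnt, -1.84 for Prex2, -0.86 for Aldh1a1, -1.77 for Plxdc2 and 2.58 for Fn1 and edgeR adjusted p-values of 0.0877 to 0.375.

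**Figure D5:**
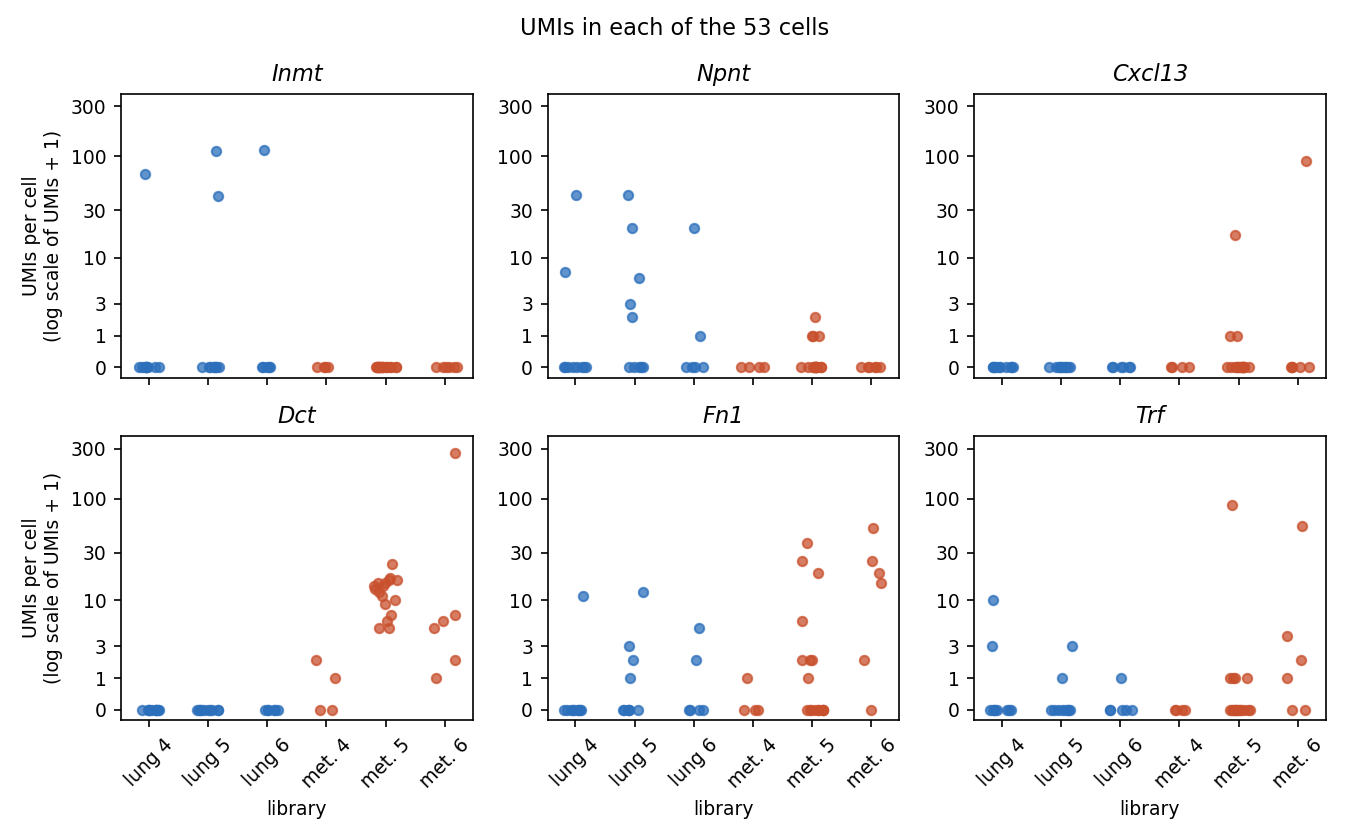
UMIs of 6 called genes in each member, on a log scale of UMIs plus 1, with 1 point per cell, grouped by library and coloured by tissue. All 336 Inmt UMIs lie in 4 cells of unchallenged lung and 90 of 109 Cxcl13 UMIs in 1 cell of lung metastasis TME, whereas Dct was found in 25 of 27 metastasis members.

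Members with little Hhip or Myh11 held most UMIs of the 16 higher genes in lung metastasis TME, as they did of all genes. In lung metastasis TME, the 15 members under 5 UMIs of both genes held 67.8% of the members' UMIs, and they held between 62.9 and 100% (median 82.7%) of the UMIs of the 16 higher genes. The share was 62.9 to 64.7% in Cox8a, Lgals3 and Gpnmb, and 95.7% or more in Fn1, Trf and Cxcl13. Among cells with at least 5 UMIs of Hhip or Myh11, with the filter on low counts kept, 297 genes were tested and 0 were called by edgeR at an adjusted p below 0.05, with 16 at an unadjusted p under 0.05. None of the 22 passed the filter there, so that this count does not bear on their calls. With no filter, 2 of 10754 were called, Dct (log2 fold change 8.75, edgeR adjusted p = 4.41e-08) and Col1a2 (-5.14, edgeR adjusted p = 0.0141). Of 21 of the 22 genes tested there, 20 kept their direction, and Trf turned to -0.49 (edgeR adjusted p = 0.888). Chchd10, Lgals3 and Mif had log2 fold changes of 5.89, 3.61 and 2.28 in these cells, against 5.59, 3.60 and 3.04 over all members, and Fn1 0.03 against 3.26. In these fits lung metastasis TME replicate 6 had no cell and replicate 4 entered with 3.

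Leaving out single libraries changed the count. Without lung metastasis TME replicate 6, 10 genes were called, 8 of them among the 22 (Dct, Fn1, Trf, Mif, Lgals3, Inmt, Limch1 and Npnt). The other 14, with Syt4, Gpnmb, Cxcl13, Prex2 and the 3 genes of glycolysis among them, lost their call (for Prex2, a log2 fold change of -4.13 with an edgeR adjusted p of 0.0591). Without lung metastasis TME replicate 5, 98 were called, including 21 of the 22. A fit without either metastasis replicate leaves a lone library, assumed to vary like the lungs, which alone give the spread. Without unchallenged lung replicate 5 or 6, 14 and 10, of which 13 and 10 were among the 22. Without unchallenged lung replicate 4, edgeR called 0, with 87 genes at an unadjusted p under 0.05 and a smallest adjusted p of 0.0665. By the library names, replicate 4 was of another run than replicates 5 and 6 of both tissues, so that this fit is also the comparison within that run.

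The genes that mark the members showed no called difference between tissues. Of the 21 contractile genes outside the rule, 14 were tested and 0 were called by edgeR, with 1 at an unadjusted p under 0.05 and a median log2 fold change of -0.45, against 0.08 over all genes. Acta2 was at 1534, 4599 and 813 CPM in the lungs and at 2314 and 768 CPM in the metastases, with overlapping groups. Tpm2 was at 1015, 2119 and 370 CPM against 1281 and 521 CPM. Both spread more within a tissue than between tissues.

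Of 25 secreted niche factors, 6 were tested and 0 were called, with 2 at an unadjusted p under 0.05 and a median of -0.96. Slit2, a guidance ligand of Robo receptors, was at 293, 344 and 296 CPM against 62 and 27.4 CPM, so that the groups did not overlap, with an edgeR adjusted p of 0.0891. Bmp5 was at 248, 534 and 222 CPM against 331 and 0 CPM, with overlap. The 0 of Bmp5 was in lung metastasis TME replicate 6, which held no Hhip-high cell.

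Of 13 hedgehog genes only Gas1 was tested (log2 fold change 0.37, edgeR adjusted p = 0.895). Ptch1 was at 158, 172 and 148 CPM in the lungs and at 62 and 0 CPM in the metastases and did not pass the filter on low counts. With no filter its log2 fold change was -2.01 ± 0.99 (SE, edgeR adjusted p = 0.832). Of the lysophosphatidic acid genes only Plpp3 was tested (-2.12, edgeR adjusted p = 0.107). Of 30 receptors, channels and cyclic nucleotide genes of contraction 3 were tested and 0 called, with 0 at an unadjusted p under 0.05.

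Of 46 matrix genes 30 were tested, with Fn1 called higher and Npnt lower and a median of -0.38. Adventitial fibroblast genes (6 tested), interferon and MHC class I genes (5 tested), and immediate early and heat shock genes (6 tested) had 0 calls by edgeR, with 3, 1 and 1 at an unadjusted p under 0.05. Their medians were -1.91, 0.26 and 0.22. Smooth muscle transcription (2 tested), pericyte and mural (1 tested), and activated fibroblast genes (1 tested, Acta2) had 0 calls and 0 at an unadjusted p under 0.05, and no cell cycle gene passed the filter. Of the 7 genes of a signature that the study drew for fibroblasts of metastases from these samples, 1 (Clu) was tested and 0 called, with 1 at an unadjusted p under 0.05. Pooled over members, the 7 genes held 24 UMIs (185 CPM) in unchallenged lung and 212 UMIs (2255 CPM) in lung metastasis TME. A single cell of replicate 6 held 110 of the latter as Saa3. The club cell markers were at most 0.471% of the UMIs of any library's members, and 0.771% of those of endothelial cells in unchallenged lung replicate 6, while markers for endothelial, macrophage, neutrophil, lymphocyte, alveolar type 1 and type 2, ciliated, mesothelial, Schwann and red blood cells were at most 0.0924% each.

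Within the 24 Hhip-high cells, 218 genes were tested between the tissues and 0 were called by edgeR, with 11 at an unadjusted p under 0.05. Fmo2 was at 805, 1571 and 693 CPM in the lungs and at 8358 and 1642 CPM in lung metastasis TME replicates 4 (3 cells) and 5 (log2 fold change 2.18 ± 0.78, edgeR adjusted p = 0.760), whereas over all members its fold change was -2.32 (edgeR adjusted p = 0.261). Col1a2 was at 575, 1443 and 9071 CPM against 265 and 74.7 CPM (-4.76 ± 1.57, edgeR adjusted p = 0.760), and 1 lung cell held 154 of the UMIs. Timp3, an inhibitor of matrix metalloproteinases, was at 1035, 3110 and 2831 CPM against 929 and 597 CPM (-1.81 ± 0.68, edgeR adjusted p = 0.760). The 2 Hhip-high cells above 8000 UMIs, both of unchallenged lung, held 95 of the 188 Timp3 UMIs and 187 of the 220 Col1a2 UMIs of the 24 cells. Of this pair, 1 cell held 41 UMIs of Inmt and the other 10 of Pi16, an adventitial fibroblast gene.

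Dcn, Dpt (dermatopontin, a matrix protein), Eln and Sparc (osteonectin), also tested and not called, had log2 fold changes of -2.93, -2.85, -2.58 and -2.34. The same 2 lung cells held 43 of the 106 Dcn UMIs, and no fit was made without them. Mgp was at 11770, 12121 and 25017 CPM in the lungs and at 5174 and 27249 CPM in the metastases, with a log2 fold change of -0.30 ± 0.77. Bmp5 was at 383, 962 and 173 CPM against 133 and 821 CPM, with -0.25 ± 0.95. The groups overlapped for both genes. Tbx2, related to Tbx4, was found in 13 of 16 lung and 0 of 8 metastasis Hhip-high cells, and Fos, an immediate early gene, in 6 of 16 at 228 CPM and 5 of 8 at 1194 CPM. Neither of these passed the filter on low counts in the Hhip-high cells, which were shallower in lung metastasis TME (median of 2268 UMIs) than in the lungs (3884). Over all members Tbx2 was tested and not called (-1.06 ± 0.70, edgeR adjusted p = 0.526).

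A last comparison asked whether the tissue difference in the members differed from that in other cells of the same libraries, by the interaction term of an edgeR fit with the library as a block. Against endothelial cells, 52 of 8146 genes (0.638%) were called, 5 higher (0.0614%) and 47 lower (0.577%) in the members relative to endothelial cells. Of the 22 genes called within the members, 5 were among them, Cxcl13, Inmt, Limch1, Npnt and Prex2. Dct was not, and neither was Fn1. Acta2 and Tpm2 were called lower, with interactions of -3.73 and -4.73 on the log2 scale, while both were at no more than 30.4 CPM in the endothelial cells of any library. Without unchallenged lung replicates 4, 5 and 6 in turn the count was 25, 26 and 70. Without lung metastasis TME replicate 6 it was 36, of which 29 were among the 52, and 0 were higher.

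Igfbp3, a binding protein of insulin-like growth factors, was called lower in the members relative to endothelial cells. In members it was at 632, 1929 and 887 CPM in the lungs and 289 and 0 CPM in the metastases, and in endothelial cells at 1.79, 0.908 and 8.31 CPM against 493 and 621 CPM. The interaction was -10.68 on the log2 scale. Within the members alone the difference was not called (log2 fold change -2.93, edgeR adjusted p = 0.124), 1 lung cell held 77 of the 164 lung UMIs, and the 0 was in lung metastasis TME replicate 6, which had no Hhip-high cell. In cells with at least 5 UMIs of Hhip or Myh11 it was -1.33 (edgeR adjusted p = 0.723). Against alveolar fibroblasts, which had enough cells in 1 metastasis library only, 3 of 3708 genes (0.0809%) were called, 1 higher (0.027%) and 2 lower (0.0539%). They were Trf (higher by 3.57), Adh1, an alcohol dehydrogenase (-8.41), and Cpe, carboxypeptidase E (-7.87). That lone alveolar library was assumed to vary like the others, and the count was 7 without unchallenged lung replicate 4 and 1 without replicate 5.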

How the data were processed

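The table analysed holds UMI counts per gene and cell, deposited by the authors after Cell Ranger 6.1.1 (GRCm38) and Seurat 3.2.2, as the submitters' processing notes name them. The normalized values were not used. Of 24 library names in the table, 13 were of other groups or matched no sample used here, and were left out. Library totals and the range per cell are in the report. No cells were filtered beyond the deposited table, and no doublet caller was run.

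Members were selected in a script by the UMIs of the 12 rule genes. The members and gene lists were chosen with earlier results of these data known. Of 338 listed genes, 4 had no row in the table (Ctgf, Cyr61, Mkl1 and Mkl2). For the tests, counts were summed per library and cell kind, libraries under 5 members were left out (lung metastasis TME replicate 4 and those with 0), and edgeR 4.0.16 (R 4.3.3; TMM, low-count filter, quasi-likelihood test, Benjamini-Hochberg adjustment) was fitted across all genes, with DESeq2 1.42.0 as an alternative. Named were the rule's markers, genes of the lists, the 15 genes outside both with the highest lowest ratio (CPM plus 5) to other mesenchymal cells, and per test up to 10 called genes a direction by fold change, of at least 20 CPM on average and with ranges that did not overlap between the tissues (for interactions, ranges of the ratio to the other cell kind in the same library, CPM plus 5). Other called genes were named after their values were seen. Shares were compared by exact permutation tests. Values of 0 were bounded by 3 counts, and Poisson and binomial 95% intervals cover counting error only. The SE of a log2 fold change was derived from the test, as its absolute value divided by the square root of the quasi-likelihood F. It is an approximation that edgeR itself does not give. Scripts were tested on simulated data. Gene positions are from the GENCODE annotation of GRCm38, and promoters are from RefSeq (GRCm38.p6).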

Additional observations from a re-analysis of the deposited data

Results flagged for a closer look

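Of the 52 and 3 genes called by the edgeR interaction tests (adjusted p below 0.05), the 17 that met the rule for named genes are given here. In these the test called the tissue difference in the members unlike that in another cell kind of the same libraries. The values are the log2 difference in the members minus that in the other kind. Against endothelial cells, it was higher in the members for Cxcl13 (12.32), Ugcg, the enzyme that makes glucosylceramide (4.31), Tecpr1, a lysosomal tethering protein (3.35), and Junb, an immediate early factor (2.85). It was lower for Inmt (-13.50), the sodium channel Scn3a (-12.98), the actin-binding Nexn (-12.26), Igfbp3 (-10.68), the laminin chain Lamb1 (-6.57), Limch1 (-5.55), the gap junction protein Gja1 (-5.49), the podocyte and actin protein Synpo (-5.37), Npnt (-5.35) and the secreted Dkk3 (-5.23). Endothelial cells of the metastases held more Nexn, Igfbp3, Lamb1, Gja1, Synpo and Dkk3 without overlap, such as Lamb1 at 133 and 140 CPM against 0.717 to 5.94 CPM. Inmt, Scn3a, Limch1 and Npnt overlapped between the tissues there. Within the members alone, Dkk3 was not called (-0.77, edgeR adjusted p = 0.633). Against alveolar fibroblasts, which came from 1 metastasis library, assumed to vary like the others, it was -8.41 for Adh1, -7.87 for Cpe and 3.57 for Trf. Cpe was listed at 0 CPM in the alveolar fibroblasts of the 3 lungs and was at 321 CPM in that library. Of these genes, Gja1, Lamb1, Nexn, Scn3a, Synpo, Tecpr1, Ugcg, Adh1 and Cpe did not pass the filter on low counts in the members alone, and passed it here with the other cells. Nexn was at 0 in the members of metastasis replicates 5 and 6, and the 4 metastasis UMIs, in 2 cells, were of replicate 4, which had too few members for the test. In the members, Gja1, Lamb1 and Cpe overlapped between the tissues. Several genes rested on few members. All 20 lung UMIs of Scn3a were in 4 cells, and 1 cell held 25 of the 47 lung UMIs of Adh1. In metastasis members, 1 cell held 10 of 20 Tecpr1 UMIs, and cells under 5 UMIs of Hhip and Myh11 held 28 of 29 Ugcg UMIs. Nexn and Dkk3 were spread wider, with lung UMIs in 16 of 26 members each. No interaction was fitted without the 4 cells with alveolar fibroblast genes. Without lung metastasis TME replicate 6, Cxcl13, Ugcg, Tecpr1, Junb, Scn3a, Nexn and Synpo were no longer called. A gene at 0 in a group has a fitted value that depends on the prior count and is no bound.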

How the results depend on the processing

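The share of members kept its direction in every alternative run, with differences of -10.9 to -0.0376 points. The smallest was over all cells with none of the 3 excluded genes, at 2.10% in lung metastasis TME against 2.14%. Only that run held lung metastasis TME replicate 4, where 4 of 9 mesenchymal cells (44.4%) were members. A mesenchymal share with that replicate was not compared, so the direction is that of the libraries used. Genes called between tissues in the members (22) numbered 62 with no low-count filter, 8 with libraries of at least 3 members, 39 with at least 10, 4 after thinning each cell to 1000 UMIs, 0 with replicates 5 and 6 alone, and 0 to 98 with a library left out. Among alternatives added after seeing the data, they numbered 2 in cells with Hhip, 0 in cells with at least 5 UMIs of Hhip or Myh11, 2 in those with no filter, 0 in cells with at least 5 UMIs of Hhip and 9 without the cells with alveolar fibroblast genes. The cause was not tested. Fits with at least 10 members, or without a metastasis library, hold 1 metastasis library, and the lungs alone give their spread. DESeq2 called 27, 15 higher and 12 lower, with 19 among the 22. With libraries of at least 3 members, 3 were higher and 5 lower, against 16 and 6 in the main fit. Trf turned to -0.49 in cells with at least 5 UMIs and no filter. Interactions with endothelial cells (52) numbered 25 with replicates 5 and 6 alone and 25 to 70 with a library left out, and those with alveolar fibroblasts (3) numbered 7 and 1 to 7. With size factors in place of TMM the median interaction over all genes moved from -0.21 to 0.00059.

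With the replicate block, the share difference was -2.34 points and 28 genes were called, 11 higher and 17 lower, against 16 and 6 without it, and 17 of the 28 were among the 22. Samples of the same number came from different mice, and by the library names replicates 5 and 6 of both tissues were of 1 run. With 2 metastasis libraries, whose deviations mirror each other, the correlations of deviations (0.00768 and 0.0552 over 759 genes) cannot show a pairing. Members without any melanoma UMI, and the alveolar interaction without lung metastasis TME replicate 5, could not be fitted. Few cells and few metastasis libraries limit every comparison.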
